A study of Homo sapiens with 6 samples.

Results

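The 33 genes described here encode the enzymes of cholesterol synthesis, the proteins that sense sterols and control that synthesis, and the proteins that take up, store, move and export cholesterol. They were taken by gene symbol from the annotation of the HG-U133 Plus 2.0 array, an Affymetrix array on which each gene is read by 1 or more probe sets, and each was read by its brightest probe set that names only that gene. Of the 33, 31 had such a probe set and 30 were bright enough to be tested, out of 19775 genes read and 11853 tested in all. FDFT1, the squalene synthase gene, and CYP51A1, the lanosterol demethylase gene, had no probe set naming them alone here and are not analysed.

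The cells were labelled HepG2, a human line from a liver tumour, and grew in medium with 10% fetal bovine serum. An siRNA against RNF43 was delivered with Lipofectamine, a cationic lipid reagent, to the cells behind 3 arrays, and a negative control siRNA to those behind the remaining 3. RNA was extracted after 48 h. The labels name no other genetic change in the cells and state no genotype. Each group received a single siRNA duplex. The labels call the arrays biological replicates and name no separate cultures. The p-values therefore measure only how far these arrays differ, which may be partly technical. RNF43 is a membrane ubiquitin ligase that lowers Frizzled receptors at the cell surface. The sense strands are shown because the duplex is what the groups differ by.
RNF43 siRNA: cagaacagaaagcuauuautt
Negative control siRNA: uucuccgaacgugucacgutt

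Animal cells make cholesterol from acetyl-CoA through mevalonate, squalene and lanosterol. When sterols in the endoplasmic reticulum run low, SCAP carries the SREBP transcription factors to the Golgi, where they are cut and released to switch on the synthesis and uptake genes, and INSIG proteins hold this step back when sterols are plentiful. Surplus cholesterol is stored as esters or exported through ABC transporters, and the liver is a main site of all these steps.

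RNF43 itself went against its label. The 1 probe set that names only RNF43 gave log2 signals of 8.19, 8.22 and 8.41 on the arrays labelled RNF43 siRNA, against 7.65, 7.79 and 7.45 on the control siRNA arrays. No second probe set checks these values. The groups did not overlap, and the arrays labelled RNF43 siRNA were 1.56-fold higher (log2 difference 0.64, SE 0.14, limma adjusted p = 0.0098). An exact permutation test, two-sided, gave p = 0.1, below which 3 against 3 arrays cannot go. All directions below compare arrays by these labels and are tied to no measured loss of RNF43 mRNA. The label HepG2 was also not borne out by liver markers. Of 7 hepatocyte markers read, 1 passed the filter on dim probe sets: AFP had log2 signals of 6.12, 6.45 and 6.65 on RNF43 siRNA arrays and 6.98, 7.13 and 6.91 on control siRNA arrays, and was not called. ALB, the albumin gene, lay between 4.17 and 4.31 with RNF43 siRNA and between 3.82 and 4.43 with control siRNA. The 7 markers summed to linear signals of 205.4 to 278.7 with RNF43 siRNA and 288.4 to 423.6 with control siRNA, and none was at 0 on any array. Among markers of fibroblasts and stellate cells, LUM, a matrix proteoglycan gene, lay between 13.07 and 13.29 on RNF43 siRNA arrays and between 13.32 and 13.43 on control siRNA arrays. Over the 7 markers of that list, summed linear signals ran from 11435 to 12612 on RNF43 siRNA arrays and from 14264 to 14546 on control siRNA arrays. LUM was the brightest of them, so it weighed most in these sums. Of the 7, 4 passed the filter, 2 of these were lower (COL3A1 and DCN) and 0 were higher. COL1A2, THY1 and PDGFRB did not pass, at mean log2 signals of 5.01, 5.53 and 4.04. None of the 7 was at 0 on any array. Of the macrophage and leukocyte markers 0 of 5 read passed the filter, with summed signals of 62.65 to 149.99 with RNF43 siRNA and 88.51 to 165.09 with control siRNA, and CD163 was at 0 on 1 RNF43 siRNA array. Of 4 endothelial markers 1 passed, PECAM1, which was not called, with sums of 188.01 to 220.3 with RNF43 siRNA and 145.9 to 185.7 with control siRNA. In these bulk samples fewer cells of a type and less RNA per cell cannot be told apart, and the part of any such cells in the results below was not tested.

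Cholesterol genes were called higher more often than lower. Of the 30 members tested, 12 rose, 1 fell and 17 did not pass the threshold (limma, adjusted p under 0.05). Over all 11853 genes tested, 11.5% rose and 11.1% fell, 22.6% in either direction. The median log2 difference was 0.22 among tested members and -0.0028 among all tested genes. The rises were small apart from those of NCEH1 and TM7SF2, and ran from 1.23-fold to 4.10-fold with a median of 1.39-fold, which was also the median of all risen genes at 1.39-fold. The groups did not overlap for 16 of the 30 members, against 38.9% of all tested genes. The risen genes sat mostly in the synthesis pathway, where 9 of 15 tested members rose, and the 5 genes of SREBP control and the 2 export genes held 0 calls by limma, although 2 of those control genes and 1 export gene had an unadjusted p under 0.05. Differences between these role groups were not tested. Leaving out RNF43 siRNA replicate 1 or 2 lowered the risen members to 8 and the fallen to 0, and leaving out RNF43 siRNA replicate 2 lowered all called genes to 1739 of 2684.

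**Figure D1:**
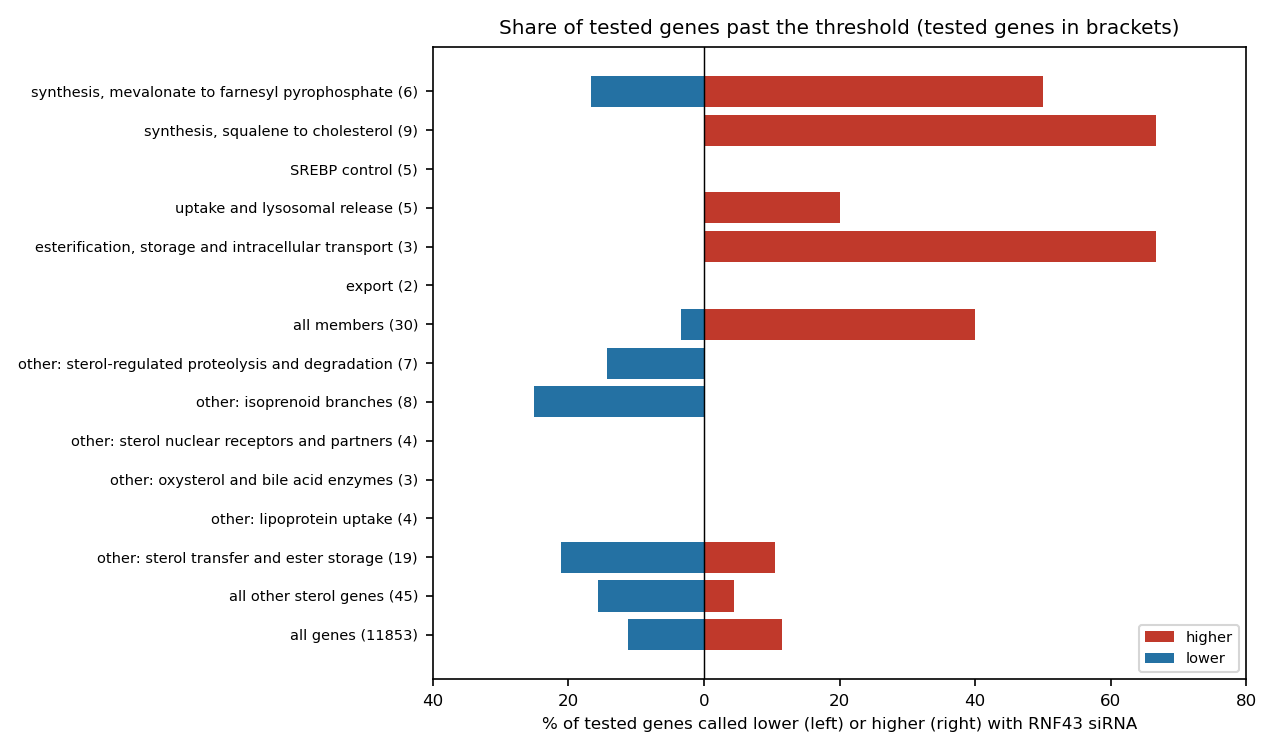
Percent of tested genes called higher (bars to the right) or lower (bars to the left) with RNF43 siRNA, for the members by role, for the other sterol genes by role and for all genes, with the number tested in brackets. The synthesis members reach 50% (early steps) and 66.7% (later steps) higher, against 11.5% of all genes.

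The early steps, from acetyl-CoA to farnesyl pyrophosphate, held 3 rises and 1 fall among 6 tested genes. ACAT2, the thiolase that joins acetyl-CoA units in the cytosol, had log2 signals of 12.07, 12.17 and 12.34 on RNF43 siRNA arrays and 11.62, 11.75 and 11.85 on control siRNA arrays. Each RNF43 siRNA array lay above all control siRNA arrays, and ACAT2 rose 1.37-fold (95% confidence interval 1.20 to 1.56, adjusted p = 0.0045). HMGCS1, the synthase that makes hydroxymethylglutaryl-CoA, read 12.87, 12.86 and 12.62 with RNF43 siRNA, against 12.43, 12.36 and 12.15 with control siRNA. It rose 1.38-fold (interval 1.20 to 1.6, adjusted p = 0.0050), and the array numbered 3 was the lowest of its group on both sides. The other tested HMGCS1 probe set had a difference of 0.33, was not called (adjusted p = 0.238), and read highest on the array numbered 3 in both groups.

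IDI1, the isomerase that makes the activated isoprene unit, read 13.02, 12.93 and 12.62 with RNF43 siRNA and 12.37, 12.42 and 12.12 with control siRNA. Without overlap between the groups, it rose 1.47-fold (interval 1.24 to 1.74, adjusted p = 0.0054). The suffix _x_at on its brightest probe set marks possible binding to other transcripts. Of 2 more probe sets with that suffix, a bright one rose as well (log2 difference 0.60) and a dimmer one had a difference of 0.10 and was not called. The IDI1 probe set without that suffix, also dim, had a log2 difference of 0.013, so that the call was lost on it (adjusted p = 0.972, alternatives spanning 5.31e-06 to 0.972).

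PMVK, the phosphomevalonate kinase, was the member that fell. It read 8.63, 8.64 and 9.38 with RNF43 siRNA and 9.38, 9.64 and 10.07 with control siRNA. The fall was 1.76-fold (interval 1.27 to 2.45, adjusted p = 0.020). Its groups were only 0.0051 apart on the log2 scale, since the RNF43 siRNA array numbered 3 lay well above the other two of its group. The call was lost without RNF43 siRNA replicate 1 (adjusted p = 0.0812) or 2 (0.0912) and without control siRNA replicate 3 (0.0509), and adjusted p spanned 2.59e-05 to 0.0912 across alternatives.

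The other early enzymes gave no call. MVK, the mevalonate kinase that acts just before PMVK, had a log2 difference of -0.04 (95% interval -0.39 to 0.31), with values of 8.66, 8.84 and 9.17 against 8.87, 9.19 and 8.73 that overlapped fully. FDPS, which makes farnesyl pyrophosphate, was 12.96, 12.91 and 13.02 with RNF43 siRNA and 12.68, 12.68 and 12.93 with control siRNA. Its difference of 0.20 did not pass (adjusted p = 0.098), and passed without control siRNA replicate 3 (0.0149, range over all alternatives 0.0122 to 0.297). MVD, the decarboxylase after PMVK, was too dim to test, at 2.32, 6.12 and 3.98 with RNF43 siRNA and 3.70, 5.33 and 5.14 with control siRNA.

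Later in the pathway, 6 of 9 tested genes rose and 0 fell, and all 9 log2 differences were above 0. MSMO1, the oxidase that removes methyl groups from the sterol ring, was the steadiest of them. It read 13.36, 13.43 and 13.29 with RNF43 siRNA and 12.64, 12.58 and 12.54 with control siRNA, so that the groups lay 0.65 log2 units apart while each group spanned far less. MSMO1 rose 1.71-fold (interval 1.55 to 1.89, adjusted p = 2.76e-05).

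TM7SF2, a sterol reductase of the endoplasmic reticulum and nuclear envelope, read 7.15, 7.57 and 7.09 with RNF43 siRNA and 5.93, 5.87 and 6.17 with control siRNA. It rose 2.43-fold (interval 1.69 to 3.50, adjusted p = 0.0036). The control siRNA values lay just above the filter of 5.83, and the log2 difference of 1.28 became 0.78 with 64 added to the linear signal. SC5D, the desaturase that acts on lathosterol, read 12.01, 11.91 and 12.23 with RNF43 siRNA and 11.35, 11.40 and 11.64 with control siRNA. It rose 1.5-fold (interval 1.29 to 1.76, adjusted p = 0.0024). Its other probe set was below the filter, and averaging both left a log2 difference of 0.13 (adjusted p = 0.791, alternatives spanning 4.32e-06 to 0.791).

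NSDHL, a dehydrogenase that works with MSMO1 in removing methyl groups, read 11.53, 11.53 and 11.20 with RNF43 siRNA and 10.99, 11.09 and 10.91 with control siRNA. It rose 1.34-fold (interval 1.15 to 1.56, adjusted p = 0.012), and its other probe set rose too (log2 difference 0.48). EBP, the isomerase that shifts the ring double bond, read 13.12, 13.03 and 12.87 against 12.72, 12.76 and 12.64, with no overlap. It rose 1.23-fold (interval 1.09 to 1.38, adjusted p = 0.018), as did 1 of its 3 other tested probe sets. DHCR7, the reductase that makes cholesterol itself in the last step, read 10.44, 10.46 and 10.34 with RNF43 siRNA and 10.29, 9.82 and 9.79 with control siRNA. The rise of DHCR7 was 1.36-fold (interval 1.13 to 1.65, adjusted p = 0.027), its control siRNA array numbered 1 lay close to the RNF43 siRNA arrays, and its other probe set rose as well (0.40). These 3 calls were each lost when 1 of several arrays was left out. Without 1 array the log2 differences were 0.37 to 0.53 for NSDHL, 0.24 to 0.37 for EBP and 0.36 to 0.61 for DHCR7. Adjusted p for NSDHL was 0.0514 and 0.0591 without RNF43 siRNA replicates 1 and 2 (range over all alternatives 1.98e-04 to 0.0591). For EBP it was 0.0601, 0.0686 and 0.0569 without RNF43 siRNA replicates 1 and 2 and control siRNA replicate 1 (8.81e-04 to 0.0709). For DHCR7 it was 0.0803, 0.0954, 0.0990 and 0.0657 without RNF43 siRNA replicates 1 and 2 and control siRNA replicates 2 and 3 (0.0018 to 0.0990).

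The remaining late enzymes gave smaller differences that did not pass. SQLE, the squalene epoxidase that is a slow, regulated step of the pathway, read 12.42, 12.32 and 12.14 with RNF43 siRNA and 12.16, 12.20 and 11.99 with control siRNA, a log2 difference of 0.18 (95% interval -0.02 to 0.37). LSS, the lanosterol synthase, read 11.44, 11.28 and 11.31 against 11.38, 11.15 and 11.21, with a difference of 0.09 (interval -0.09 to 0.28). HSD17B7, the ketosteroid reductase that completes the removal of methyl groups, read 11.45, 11.64 and 11.53 against 11.43, 11.37 and 11.32, with a difference of 0.17 (adjusted p = 0.132). Its groups did not overlap, and its single probe set ends in _x_at.

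**Figure D2:**
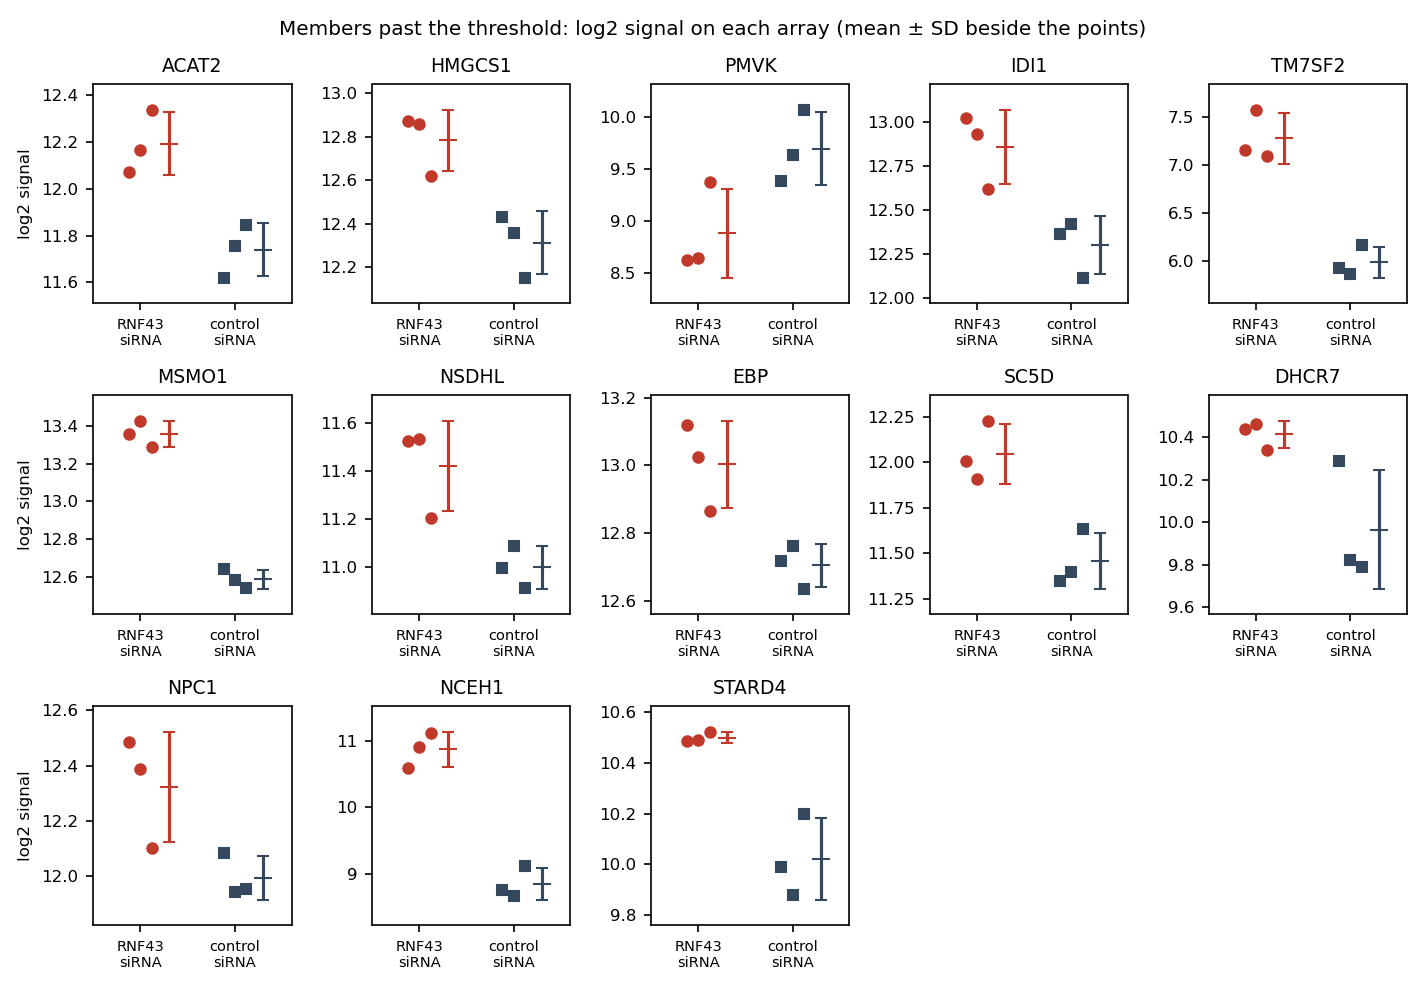
Log2 signal of the 13 members past the threshold, with 1 point per array (RNF43 siRNA left, control siRNA right) and the mean ± SD of 3 arrays beside them. Vertical scales differ between panels. The groups do not overlap in any of the 13 panels, and in the PMVK panel they are 0.0051 apart.

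None of the 5 genes that control synthesis was called. SREBF2, which encodes the SREBP that acts mostly on cholesterol genes, read 8.31, 8.74 and 8.29 with RNF43 siRNA and 8.03, 8.61 and 7.99 with control siRNA. The array numbered 2 was the highest in both groups, and the log2 difference of 0.24 had a 95% interval of -0.18 to 0.65. SREBF1, whose products also act on fatty acid genes, read 9.08, 9.26 and 8.91 against 8.94, 8.63 and 8.73, with a difference of 0.32 (interval 0.04 to 0.60, adjusted p = 0.096). SREBF1 passed with array weights (0.35, adjusted p = 0.0497, alternatives spanning 0.0497 to 0.736), and averaging its probe sets turned the difference to -0.18. SCAP, the escort of both SREBPs, read 9.88, 9.70 and 9.73 with RNF43 siRNA and 9.81, 9.97 and 9.86 with control siRNA. Its difference was -0.11 (interval -0.31 to 0.09).

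INSIG1, an SREBP target as well as a brake on SREBP release, read 12.22, 12.34 and 12.17 with RNF43 siRNA and 12.19, 12.21 and 12.42 with control siRNA. The values overlapped and the log2 difference was -0.03, with a 95% interval of -0.21 to 0.15. The 2 other tested INSIG1 probe sets gave 0.07 and -0.19, and neither passed. INSIG2, the other brake, read 10.05, 9.85 and 9.90 against 10.12, 10.29 and 10.06. Its groups were 0.012 apart, and the difference of -0.22 did not pass (interval -0.43 to -0.02, adjusted p = 0.117). These are mRNA levels, and SREBP cleavage was not measured.

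Among uptake and lysosomal genes, 1 of 5 rose. NPC1, the lysosomal membrane protein that passes freed cholesterol out of the lysosome, read 12.48, 12.39 and 12.10 with RNF43 siRNA and 12.09, 11.94 and 11.96 with control siRNA. It rose 1.26-fold (interval 1.08 to 1.46, adjusted p = 0.033), with the groups 0.016 apart because the RNF43 siRNA array numbered 3 sat next to the highest control siRNA array. The NPC1 call was lost without RNF43 siRNA replicate 1 (adjusted p = 0.116) or 2 (0.118), and without control siRNA replicate 2 (0.106) or 3 (0.0641). It was also lost on averaging its probe sets (0.262), and adjusted p spanned 0.0013 to 0.262 over the alternatives. Neither of its 2 other tested probe sets was called (log2 differences 0.35 and 0.21). NPC2, the soluble partner that hands cholesterol to NPC1, read 13.07, 12.89 and 12.95 against 13.01, 13.00 and 12.99, a log2 difference of -0.03 (interval -0.17 to 0.12). LIPA, the acid lipase that frees cholesterol from lipoprotein esters, read 12.34, 12.56 and 12.22 against 12.40, 12.69 and 12.54. Its groups overlapped, with a difference of -0.17 (interval -0.39 to 0.05).

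SCARB1, the receptor for high-density lipoprotein, read 11.08, 11.06 and 11.21 with RNF43 siRNA and 10.86, 11.00 and 10.96 with control siRNA. The groups did not overlap, but the log2 difference of 0.18 did not pass (adjusted p = 0.125). MYLIP, a ubiquitin ligase that marks lipoprotein receptors for breakdown, read 9.72, 9.55 and 9.07 against 9.52, 9.27 and 8.96. The arrays numbered alike stood in the same order in both groups, the difference was 0.20 (interval -0.20 to 0.59), and none of its 4 other tested probe sets was called.

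NCEH1, the hydrolase that frees cholesterol from stored esters outside the lysosome, showed the largest change of the 30 tested members. It read 10.60, 10.92 and 11.12 with RNF43 siRNA and 8.75, 8.66 and 9.12 with control siRNA. The groups lay 1.48 log2 units apart, and NCEH1 rose 4.10-fold (interval 3.26 to 5.16, adjusted p = 1.36e-05), rank 4 by fold among the 1364 risen genes. The gene is read by this 1 probe set, so no second probe set checks the value. STARD4, a carrier that moves sterols through the cytosol, read 10.49, 10.49 and 10.52 against 9.99, 9.88 and 10.20. It rose 1.39-fold (interval 1.21 to 1.61, adjusted p = 0.0046), and its 3 RNF43 siRNA values agreed to an SD of 0.02.

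SOAT1, the enzyme that makes the cholesteryl esters which NCEH1 splits, gave different answers by probe set. Its brightest probe set read 11.82, 11.93 and 12.04 with RNF43 siRNA and 11.90, 11.95 and 11.91 with control siRNA, a log2 difference of 0.0091 (interval -0.15 to 0.17). A second read 11.31, 11.36 and 11.15 with RNF43 siRNA and 10.43, 10.23 and 10.33 with control siRNA, and rose by 0.94 (SE 0.09, adjusted p = 2.07e-04 over 22660 probe sets, of which 17.7% were called). The remaining one read 9.69, 9.64 and 9.64 against 8.98, 9.12 and 8.77, and rose by 0.70 (SE 0.11, adjusted p = 0.0029). The groups overlapped on the brightest probe set and were apart on both others. Averaged over its probe sets SOAT1 rose, with a log2 difference of 0.55 (adjusted p = 0.0011, alternatives spanning 0.0011 to 0.990). Which transcripts each probe set reads was not analysed here.

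**Figure D3:**
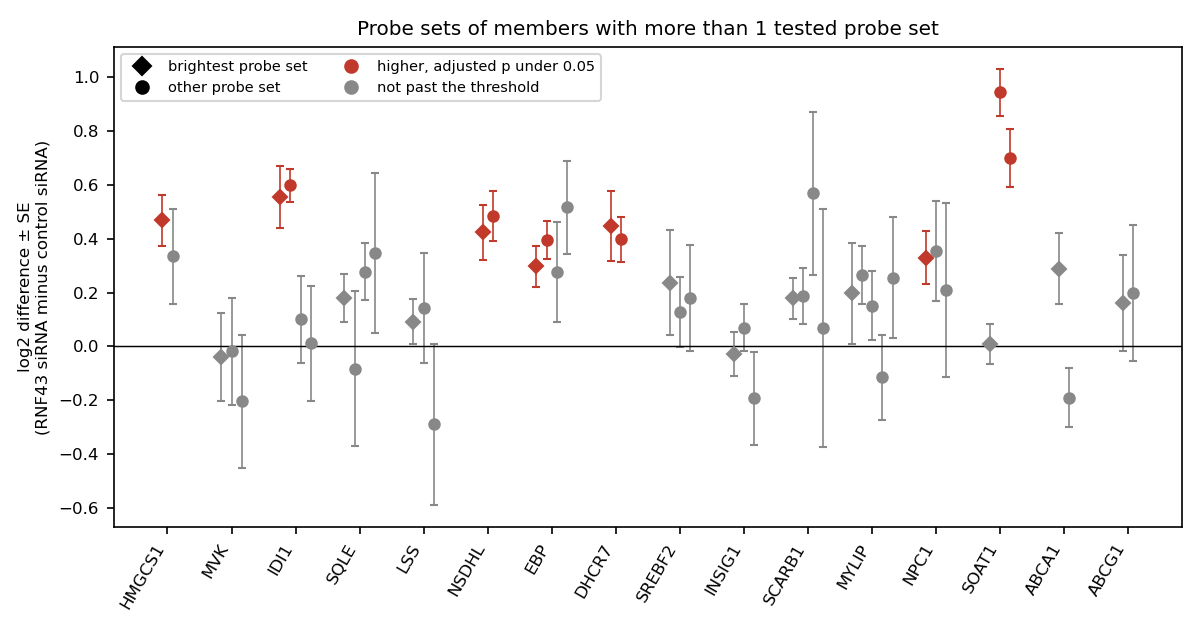
Log2 difference ± SE (RNF43 siRNA minus control siRNA) of every tested probe set for the 16 members with more than 1, brightest probe set as a diamond. Both other SOAT1 probe sets lie at 0.94 and 0.70 while its brightest lies at 0.0091, and the second IDI1, NSDHL and DHCR7 probe sets lie beside their brightest.

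Across the members, 33 further probe sets could be tested, for 16 genes. Of these 6 rose, 0 fell and 27 did not pass, 20 of the 27 with a positive difference. The share called is close to the 17.7% of all tested probe sets called in either direction, so the number of calls says nothing particular about these genes. The share of all probe sets called higher was not counted, so the direction of these 6 has no background beside it. No member had a second probe set called in the direction opposite to its brightest. Probe sets of a gene share the RNA of the same array and are not replicates.

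Neither cholesterol exporter was called. ABCA1, which loads cholesterol onto apolipoprotein A-I, read 9.61, 9.69 and 9.56 with RNF43 siRNA and 9.08, 9.60 and 9.32 with control siRNA. Its control siRNA array numbered 2 lay within the RNF43 siRNA range, and the log2 difference of 0.29 did not pass (adjusted p = 0.133). It passed with that array left out (0.42, adjusted p = 0.0361) and with the replicate number as a block (adjusted p = 0.0364), with alternatives spanning 0.0361 to 0.414. The other tested ABCA1 probe set had a difference of -0.19 and was not called. ABCG1, which exports to larger particles, read 7.10, 7.24 and 7.40 against 7.09, 6.94 and 7.22, a difference of 0.16 (interval -0.24 to 0.57).

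**Figure D4:**
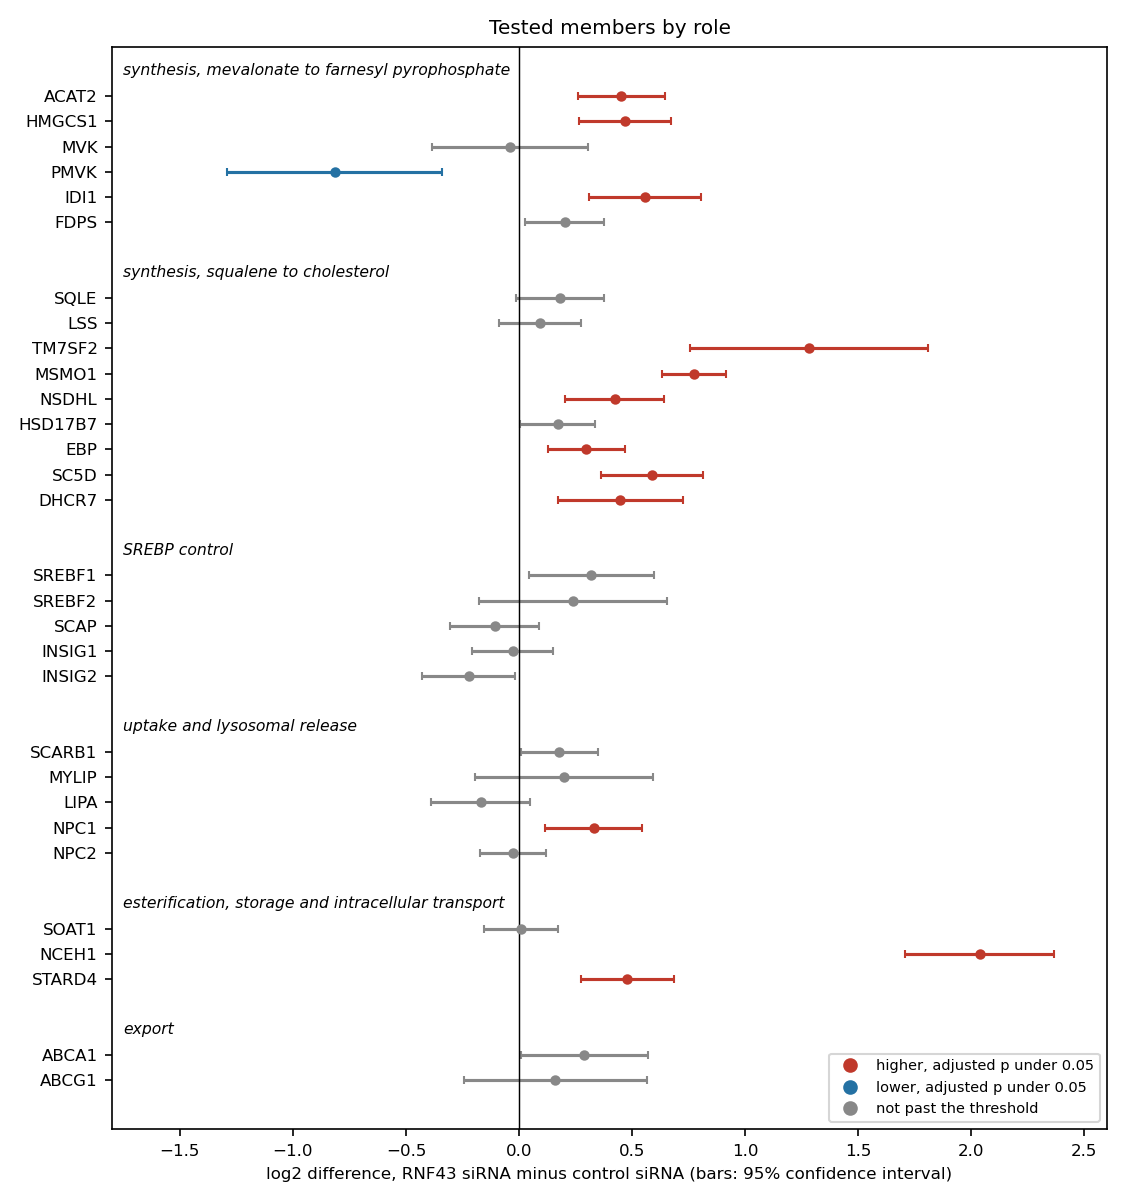
Log2 difference (RNF43 siRNA minus control siRNA) with its 95% confidence interval for the 30 tested members, grouped by role. NCEH1 at 2.04 and TM7SF2 at 1.28 lie farthest to the right, PMVK at -0.82 farthest to the left, and the 5 SREBP control genes lie between -0.22 and 0.32.

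The arrays numbered 3 often stood at the same end of both groups. For 9 of the 30 members, HMGCS1, IDI1, SQLE, MSMO1, NSDHL, EBP, DHCR7, SREBF2 and MYLIP, the array numbered 3 was the lowest of its group both with RNF43 siRNA and with control siRNA. For 7 others, ACAT2, PMVK, FDPS, SC5D, NCEH1, STARD4 and ABCG1, it was the highest in both. The arrays numbered 1 were lowest in both groups for 3 members and highest in both for 5, and those numbered 2 for 1 and 4. These counts were not made over all tested genes, so they have no background and show nothing particular to the members. The labels do not say that a number marks a shared day or culture. The median SD over the tested members was 0.14 with RNF43 siRNA and 0.14 with control siRNA, against 0.13 and 0.12 over all tested genes.

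Promoter sequences of the members were searched for motifs known to act at sterol genes. The RefSeq windows on GRCh38.p14 run from 250 bases before to 50 bases after a transcription start, and 28 of the 33 members had 37 windows. The motifs were TCACNCCAC, a form of the sterol regulatory element that SREBPs bind, CCAAT, the box bound by NF-Y, and GGGCGG, the GC box bound by Sp1, on both strands. The sterol element was found in 1 of the 37 windows, that of SREBF2, against 1.13% of all 35116 windows, and in 0 of the 16 windows of risen members. CCAAT was in 24 of the 37 member windows (64.9%) and 12 of the 16 of risen members (75%), against 34.6% of all windows. GGGCGG was in 33 of the 37 (89.2%) and 13 of the 16 (81.25%), against 45.0% of all windows. All windows include those of genes not tested on the arrays. A match is a description of letters, and other forms of the sterol element were not searched.

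Shown are the windows of the called members with the smallest p, NCEH1 at chr3:172711018-172711317 on the minus strand, MSMO1 at chr4:165327419-165327718, SC5D at chr11:121292521-121292820 (the first of 2 windows) and TM7SF2 at chr11:65111622-65111921, all on the plus strand. SREBF2 at chr22:41832855-41833154 on the plus strand is added after its match was seen. Capitals mark matches to the motifs on either strand, which can overlap. MSMO1 holds 4 CCAAT boxes and 2 GC boxes, TM7SF2 1 and 4, SC5D 1 of each, and NCEH1 a single CCAAT box and no GC box.
NCEH1: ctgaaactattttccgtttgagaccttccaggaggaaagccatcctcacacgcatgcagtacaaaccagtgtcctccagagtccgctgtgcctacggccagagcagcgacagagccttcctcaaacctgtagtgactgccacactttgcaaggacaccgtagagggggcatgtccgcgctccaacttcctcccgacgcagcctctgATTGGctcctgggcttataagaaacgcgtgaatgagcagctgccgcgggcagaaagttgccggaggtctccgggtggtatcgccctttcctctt
MSMO1: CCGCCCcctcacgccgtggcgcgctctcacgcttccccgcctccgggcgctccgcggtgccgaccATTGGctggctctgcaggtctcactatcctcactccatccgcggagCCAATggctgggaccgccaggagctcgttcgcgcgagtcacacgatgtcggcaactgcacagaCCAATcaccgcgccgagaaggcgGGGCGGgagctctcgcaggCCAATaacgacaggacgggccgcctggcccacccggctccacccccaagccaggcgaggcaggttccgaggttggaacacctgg
SC5D: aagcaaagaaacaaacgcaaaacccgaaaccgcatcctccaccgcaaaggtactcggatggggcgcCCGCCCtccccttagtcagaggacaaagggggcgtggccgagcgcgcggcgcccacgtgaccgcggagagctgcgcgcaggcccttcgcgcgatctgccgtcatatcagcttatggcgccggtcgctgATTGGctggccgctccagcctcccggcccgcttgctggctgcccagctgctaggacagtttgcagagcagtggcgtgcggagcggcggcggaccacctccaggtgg
TM7SF2: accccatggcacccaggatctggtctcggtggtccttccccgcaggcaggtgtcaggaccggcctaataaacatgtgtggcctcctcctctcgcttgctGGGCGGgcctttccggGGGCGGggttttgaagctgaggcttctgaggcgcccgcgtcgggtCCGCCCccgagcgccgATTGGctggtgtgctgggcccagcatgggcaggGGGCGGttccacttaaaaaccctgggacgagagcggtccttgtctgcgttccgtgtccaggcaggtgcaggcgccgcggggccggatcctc
SREBF2: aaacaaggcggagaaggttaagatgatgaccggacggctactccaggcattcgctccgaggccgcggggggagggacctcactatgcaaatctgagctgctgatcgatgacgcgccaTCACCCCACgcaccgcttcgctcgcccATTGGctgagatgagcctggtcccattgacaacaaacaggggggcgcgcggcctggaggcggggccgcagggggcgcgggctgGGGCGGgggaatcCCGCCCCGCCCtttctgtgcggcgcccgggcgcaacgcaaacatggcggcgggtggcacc

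Other genes of sterol and isoprenoid metabolism, outside the 33, were called about as often as all genes. Of 68 listed, 62 were read and 45 tested, and 2 rose, 7 fell and 36 did not pass, with a median log2 difference of 0.0026. That is 4.44% higher and 15.6% lower, against 11.5% and 11.1% of all genes, and 20% called against 22.6%. Their difference from the 33 was not tested. LBR, the lamin B receptor, which also carries the sterol reductase activity of TM7SF2, read 13.07, 12.99 and 12.82 with RNF43 siRNA and 12.26, 12.35 and 12.33 with control siRNA. It rose 1.56-fold (log2 difference 0.65, SE 0.075, adjusted p = 2.16e-04). TMEM97, a membrane protein that binds NPC1, rose 1.26-fold (0.33, SE 0.06, adjusted p = 0.0050), and 2 of its 3 other probe sets rose as well.

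The falls lay among sterol transfer, isoprenoid and degradation genes. OSBP, which exchanges cholesterol between the endoplasmic reticulum and the Golgi, fell 1.47-fold, and its relatives OSBPL2 and OSBPL11 fell 1.62-fold and 1.21-fold. For these 3, none of the other tested probe sets was called. ERLIN2, which takes part in sterol-dependent protein breakdown, fell 1.31-fold, and both of its other probe sets fell. NUS1, a subunit of the enzyme that makes dolichol from farnesyl pyrophosphate, fell 1.29-fold, and its other probe set was not called (log2 difference -0.16, adjusted p = 0.185). PDSS2, which builds the side chain of coenzyme Q, read 7.92, 7.85 and 7.91 with RNF43 siRNA and 9.02, 8.96 and 8.99 with control siRNA on its brightest probe set. It fell 2.13-fold there and rose on another (log2 differences -1.09 and 0.45), so its direction depends on the probe set. CES1, a liver carboxylesterase, fell 1.71-fold with adjusted p = 0.049. The CES1 call was lost without any 1 array (adjusted p 0.0558 to 0.139, and 0.0164 to 0.139 over all alternatives). The OSBPL11 call was lost without RNF43 siRNA replicate 1 (0.0607), 2 (0.0502) or 3 (0.0508) or control siRNA replicate 1 (0.0796) or 2 (0.0567), within 0.0069 to 0.706 over all alternatives. The OSBP call was lost on its probe set without an _s_at suffix (0.488, alternatives spanning 3.07e-05 to 0.488). The 4 tested nuclear receptor genes and partners, the 3 oxysterol and bile acid enzymes and the 4 lipoprotein uptake genes held 0 calls by limma. At an unadjusted p under 0.05 they held 1 gene, LRPAP1, a chaperone of lipoprotein receptors.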

How the data were processed

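Messenger RNA was measured on 6 arrays, 3 per group, assigned by their titles. The deposited values are log2 signals per probe set. The submitters' processing notes name MAS5, which subtracts mismatch signal and makes dim probe sets noisy, with its version not given in the sources used here. Base 2 was inferred from the deposited values: on that base, means trimmed by 2% at each end were 497.03 to 497.2 on all arrays, so the authors had scaled them, which would hide a shift of all transcripts. Between 391 and 628 of 54613 values per array were 0, read as a floor. No 2 arrays were identical. Median log2 signals were 5.89 to 6.02. The number of arrays limits the precision.

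Probe sets were named from the annotation of the platform, with symbols brought to those of RefSeq GRCh38.p14. Of the probe sets, 41091 named 1 gene, 1801 several and 11721 were unnamed here. Each gene was read by its brightest probe set naming 1 gene and tested if its mean was above 5.83, which 50% of probe sets exceed. The comparison used limma 3.58.1 (R 4.3.3), with a trended eBayes after lmFit, two-sided p-values, Benjamini-Hochberg adjustment over all tested genes and a threshold of 0.05, and every probe set was fitted the same way as a check. The steps were run on simulated data with planted changes larger than most called member differences. The simulated noise was independent between arrays, so this run does not cover small changes or effects shared by same-numbered arrays. Alternatives covered normalization, added signal, filters, the variance model, array weights, probe set choice, a replicate block and leaving out each array. The members, lists and tests were chosen with earlier results of these data known. All members are named, and of the other sterol genes those that were called. No protein sequences were used here.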

Additional observations from a re-analysis of the deposited data

How the results depend on the processing

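Of the 13 called members, 6 (ACAT2, HMGCS1, TM7SF2, MSMO1, NCEH1 and STARD4) kept their call and direction in each of the 16 alternatives that tested them, and none of the 13 changed direction. All of these 6 except HMGCS1 are read by 1 probe set, so the alternatives on probe set choice could not change their differences. Of 17 uncalled members, 10 were called in no alternative. RNF43 kept its call and direction in all 16, with a log2 difference of 0.51 to 0.72. It too is read by 1 probe set, so the alternatives on probe set choice left its difference at 0.64. Without an intensity trend 9 members rose and 0 fell. Averaging each gene over its probe sets gave 1587 called genes out of 10605 tested. With _x_at and _s_at probe sets left out, 23 members could be tested, 7 rose and 0 fell, and 3 other sterol genes fell. Leaving out 1 array gave 1739 to 2653 called genes, 8 to 12 risen and 0 to 1 fallen members, and 2 to 3 risen and 5 to 7 fallen other sterol genes.

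The sign of several small, uncalled differences turned, and that of PDSS2, which had been called lower. With arrays centred on their medians, which moved the median of all genes by less than 0.1, INSIG1 was 0.0060 and NPC2 0.0075. SOAT1 was -0.0048 after quantile normalization and -0.0056 with array weights, where INSIG1 was 0.040. With the mean of probe sets LSS was -0.018, SREBF1 -0.18 and SCARB1 -0.055, and PDSS2 was 0.39 (adjusted p = 0.532). Without 1 array MVK lay between -0.18 and 0.090, NPC2 between -0.075 and 0.013, INSIG1 between -0.078 and 0.045, and SOAT1 between -0.047 and 0.066. The averages for SREBF1 and SCARB1 each take in a probe set below the filter, with log2 differences of -0.69 and -1.28. The PDSS2 average takes in its probe sets at mean log2 signals of 4.13 and 3.52, also below the filter. Why probe sets of a gene differ, and the cause of the other turns, were not tested.

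With the replicate number as a block, 3908 genes were called, 16 members rose and 2 fell, and FDPS, SQLE, SCARB1, ABCA1 and LIPA gained a call. Same-numbered arrays deviated together with r = 0.16, 0.077 and 0.27 over genes for numbers 1, 2 and 3, and genes are no independent replicates. Pairs of arrays with different numbers, 1 from each group, gave r from -0.21 to 0.086. The pair numbered 2 lay under 0.1, and the labels give no shared culture or day, so the block was not taken as the design.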
